A study of Saccharomyces cerevisiae with 18 samples.

Results

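The cell wall integrity pathway was followed in yeast colonies through 10 of its genes, matched by symbol in the probe annotation out of 5543 genes named on the array. They were the 5 plasma membrane sensors MID2, MTL1, WSC2, WSC3 and SLG1, the protein kinase C gene PKC1, the kinases BCK1, MKK1 and SLT2 of the cascade below it, and the transcription factor gene RLM1. Each gene had 2 spots per array, whose values were averaged.

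The yeast wall is a layer of glucan, mannoprotein and chitin outside the plasma membrane, and this pathway is the cell's main way of sensing damage to it. The sensors are stiff, heavily mannosylated proteins that span the membrane and reach into the wall. When the wall is stretched or damaged they act through a small GTPase, Rho1, on Pkc1, which starts a relay of kinases from Bck1 to Mkk1 and its partner Mkk2 and on to the mitogen-activated protein kinase Slt2. Slt2 phosphorylates Rlm1, which switches on genes for wall proteins and wall-building enzymes. Most of this signalling runs through phosphorylation, whereas the arrays measured mRNA.

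BR-RF was the feral strain, 1 subclone with structured colonies that arose from BR-S during a long starvation in static culture. BR-F was the wild strain, which forms structured biofilm colonies, and BR-S was its domesticated derivative with smooth colonies. All were grown as giant colonies on the same agar with yeast extract and glycerol and taken on day 4 or day 7, without any drug or added stress. On each array RNA from 2 of the strains was hybridised together with Cy3 and Cy5, which gave 3 couples, written here as BR-RF/BR-F, BR-F/BR-S and BR-RF/BR-S, each on 2 days and with 3 arrays. By the labels, arrays 1 and 2 held one RNA with the dyes exchanged and array 3 held a biological replicate, so each mean rests on 2 biological replicates. Values are log2 ratios of the first strain over the second, and a gene was called where its adjusted p from limma was under 0.05.

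Over the 18 arrays, 8040 to 10291 of the 11146 named spots were used. A separate check gene, FLO11, which encodes an adhesin of structured colonies, was measured on 10 arrays, and its fitted log2 ratios lay between -0.27 and 0.21 with no call in the 4 couples and days where it was tested. By the paper's northern blot, FLO11 mRNA was present in BR-F and BR-RF and very low in BR-S. The array spots, with a median background-subtracted signal in the dimmer channel at 0.988 times the local background, did not show this difference. Their ratios are thus not read as equal FLO11 mRNA, and the labels of the strains had no check in this gene. A dye effect was called for 1802 of 5204 genes, among them MTL1, SLT2, MKK1 and WSC2 of the 10 genes.

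Of 55 tests of a pathway gene in a couple and day, 9 were called, all of them lower in the first strain of the couple. Of these 9 calls, 6 fell on day 7. Among all genes, too, more were called on day 7, with 760 in BR-RF/BR-F, 548 in BR-F/BR-S and 749 in BR-RF/BR-S. On day 4 these counts were 292, 204 and 216. MID2 was called in 4 of the 6 couples and days, RLM1 in 3, and MTL1 and BCK1 in 1 each. The other 6 genes (WSC2, WSC3, SLG1, PKC1, MKK1 and SLT2) were called in none. In BR-RF/BR-F, 1 of 10 genes was lower and none higher on day 4, where 3.07% of all 4959 genes tested were lower and 2.82% higher, and 1 of 9 was lower and none higher on day 7 (7.44% and 7.8% of 4984 genes). For BR-F/BR-S none of 8 genes was called on day 4 (1.72% of 4350 genes were lower and 2.97% higher), and 2 of 9 were lower and none higher on day 7 (5.1% and 6.08% of 4902 genes). Against BR-S, BR-RF had 2 of 9 lower and none higher on day 4 (1.82% and 2.97% of 4506 genes), and 3 of 10 lower and none higher on day 7 (8.61% and 7.27% of 4716 genes). These calls rest on 1 to 3 genes in a couple and day. The median log2 ratio of the pathway genes was 0.03 on day 4 and -0.11 on day 7 in BR-RF/BR-F, -0.03 and -0.26 in BR-F/BR-S, and -0.19 and -0.11 in BR-RF/BR-S, while over all genes tested the medians lay between -0.01 and 0.00. The lowest medians of the pathway genes were those of BR-F/BR-S on day 7 and BR-RF/BR-S on day 4. They lay at about the 25th percentile of the ratios of single genes (-0.25 and -0.19). A median over 9 genes spreads less than single ratios, so this does not show how usual such a median is.

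**Figure D1:**
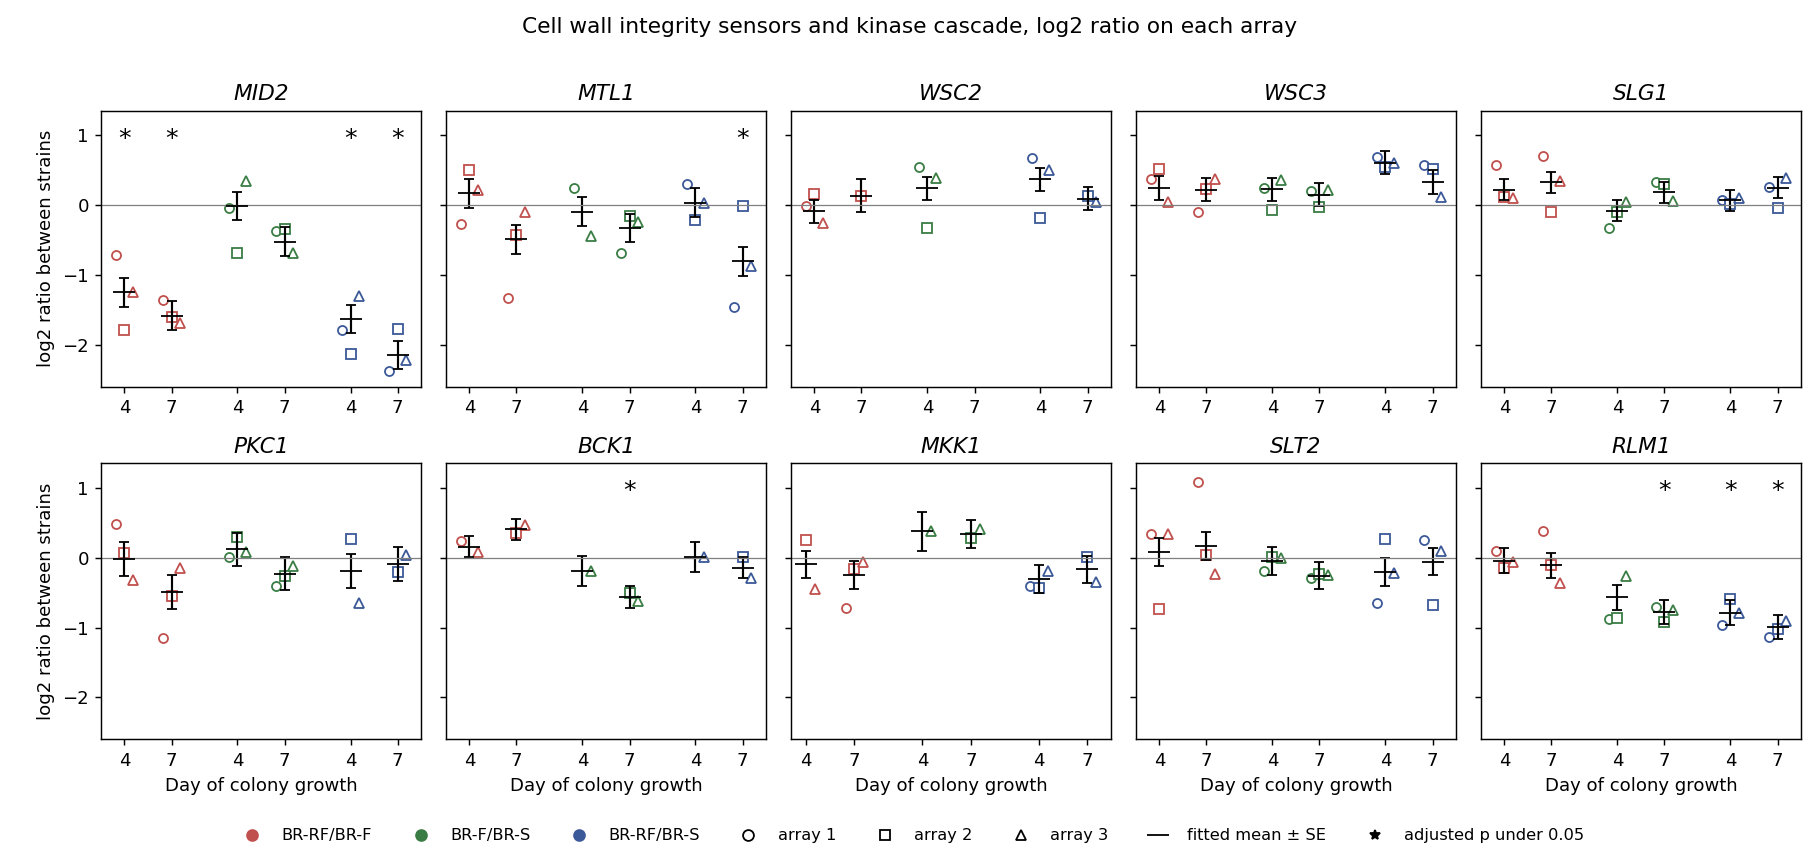
Log2 ratio of each of the 10 genes on each array (y axis) for each couple of strains by day (x axis). Open symbols are arrays, the black bar is the fitted mean with its SE from 2 biological replicates, and asterisks mark an adjusted p under 0.05. MID2 lay below 0 on all 12 arrays that held BR-RF, and RLM1 lay below 0 on all 12 arrays that held BR-S.

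MID2 (YLR332W), a sensor best known for its part in wall remodelling during the response to mating pheromone, had the lowest ratios of the pathway. In BR-RF/BR-F its log2 ratio was -0.72, -1.79 and -1.24 on arrays 1, 2 and 3 of day 4, and -1.35, -1.60 and -1.69 on those of day 7. In BR-RF/BR-S it was -1.79, -2.13 and -1.30 on day 4 and -2.38, -1.78 and -2.22 on day 7. Every array that held BR-RF thus had less MID2 signal from BR-RF than from the other strain. The fitted ratio was -1.25 ± 0.20 (SE, n = 2 biological replicates) over BR-F on day 4, which is 2.38-fold lower (adjusted p = 0.0074, limma), and -1.58 ± 0.20 on day 7, 3.00-fold lower (adjusted p = 0.00091). Over BR-S it was -1.63 ± 0.20 on day 4, 3.09-fold lower (adjusted p = 0.0014), and -2.15 ± 0.20 on day 7, 4.44-fold lower (adjusted p = 0.00036). On day 7 that was the 5th lowest of the 4716 ratios of BR-RF/BR-S. In colonies, a lower ratio from fewer cells that express a gene and one from less RNA per cell cannot be told apart.

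Between the other strains MID2 was less clear. Arrays 1, 2 and 3 of BR-F/BR-S gave -0.05, -0.68 and 0.34 on day 4, on both sides of 0, and -0.37, -0.35 and -0.69 on day 7, all below 0. The fitted ratio was -0.01 (95% interval -0.46 to 0.44, adjusted p = 0.99, limma) on day 4 and -0.52 (-0.98 to -0.07, adjusted p = 0.13) on day 7. Hence BR-RF stood lowest on both days, and BR-F and BR-S were not separated. On day 7 MID2 was called lower in BR-F than in BR-S under 2 alternatives, at -0.76 with loess by print block (adjusted p = 0.016) and at -0.54 with strain effects per day (adjusted p = 0.026). The direct ratio of BR-RF/BR-S differed from the sum of the other couples by -0.37 ± 0.35 on day 4 and -0.04 ± 0.35 on day 7 (SE). Neither difference was called, but few of all genes had even a small unadjusted p in this check, so it had little power. The dye effect fitted for MID2 was -0.01 ± 0.09 on the log2 scale (adjusted p = 0.97). Without array 3 its ratio of BR-RF/BR-F on day 4 was -1.26 with an adjusted p of 0.079, and the other MID2 calls held without any single array.

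MID2 lies on the right arm of chromosome XII, and its neighbours in the reference annotation R64, taken as the genes that start within 50 kb of it, were also lower in BR-RF. In BR-RF/BR-F the neighbours had a median log2 ratio of -0.38 on day 4 (37 genes) and -0.46 on day 7 (33 genes), with 9 and 10 of them called lower and 1 higher on each day. Over BR-S their median was -0.24 on day 4 and -0.32 on day 7 (29 genes each), with 7 and 10 called lower and none higher. The same stretch had, in BR-F/BR-S, medians of -0.05 and 0.04. The lower genes lay mostly beyond MID2, towards the chromosome end, where 9 of 14 neighbours were called lower in BR-RF/BR-S on day 7, against 1 of 15 on the side before it. The side was chosen after these values were seen. MID2 was below every one of its measured neighbours in the 4 couples and days that held BR-RF, but the lowest neighbours came within its SE of 0.20. They were ATG33 (-1.22) and YLR345W (-1.39) over BR-F on days 4 and 7, and CHS5 (-1.43) and YLR345W (-1.97) over BR-S. Under the median of both sides together, MID2 lay by 0.87 and 1.13 over BR-F on days 4 and 7. Over BR-S it lay under that median by 1.39 and 1.83. Beyond MID2 alone the neighbours' medians were lower, at -0.72 and -0.58 over BR-F and -0.65 and -0.79 over BR-S. The paper also reports a region of chromosome XII with genes lower in BR-RF than in BR-F and BR-S. Its text gives no coordinates, so whether MID2 lies in that region is not known here. How far the position of MID2 sets its ratio was not tested.

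**Figure D2:**
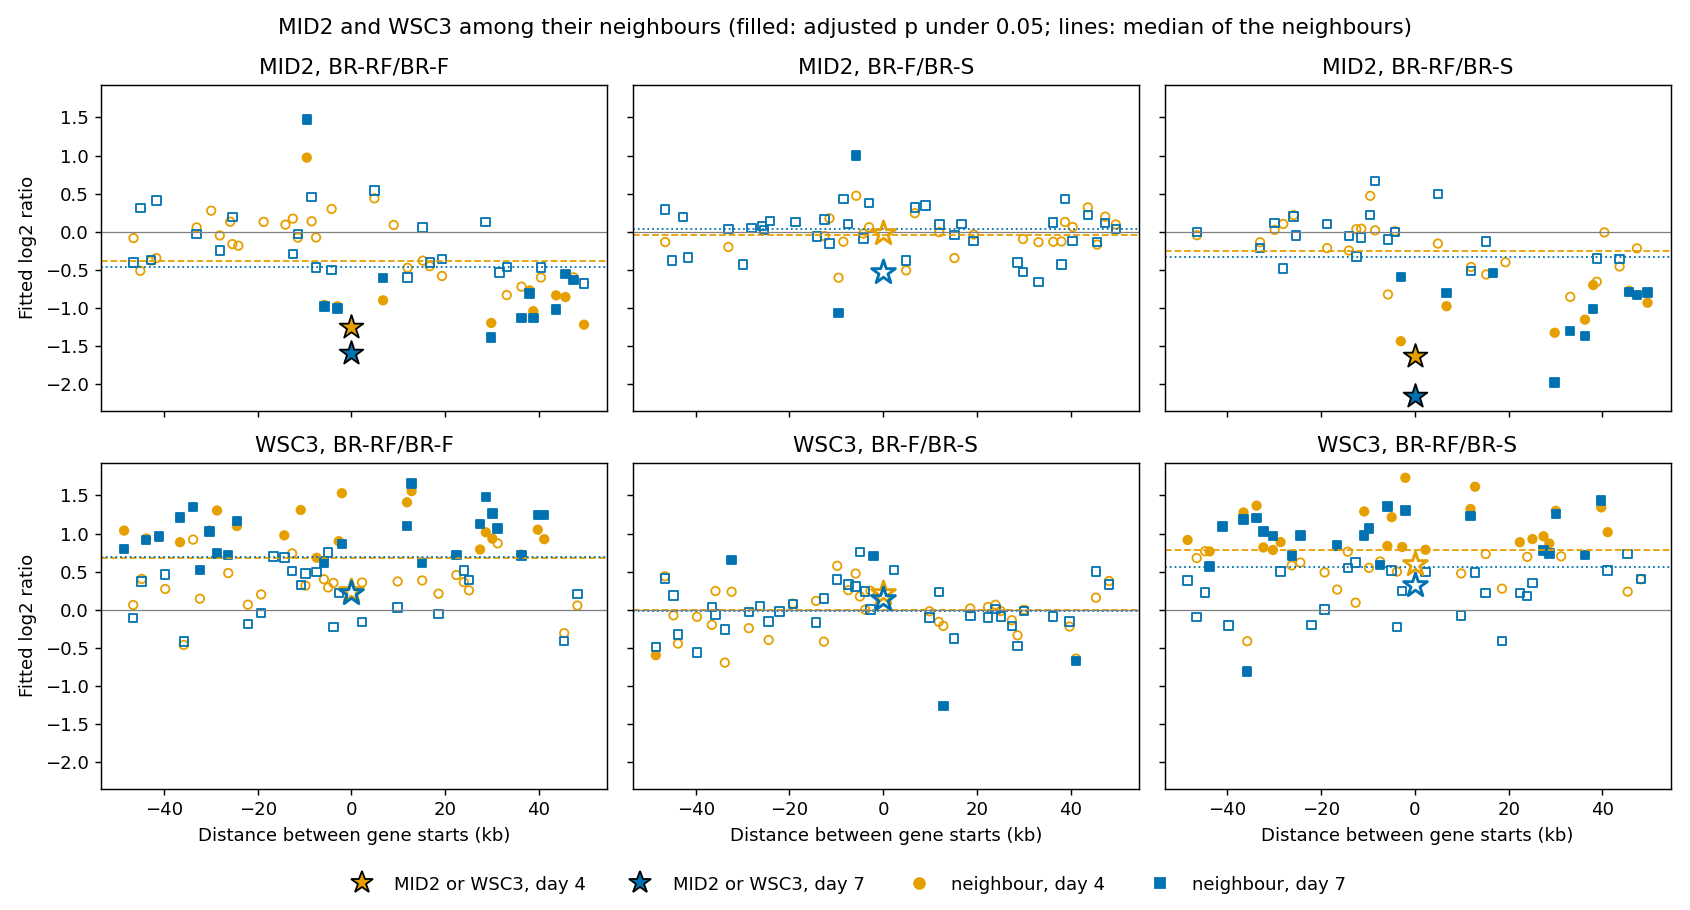
Fitted log2 ratio (y axis) of MID2 (upper row, stars) and WSC3 (lower row, stars) and of the genes that start within 50 kb of each (circles for day 4, squares for day 7), by distance between gene starts in kb (x axis). Filled symbols had an adjusted p under 0.05 and horizontal lines are the neighbours' medians for day 4 (dashed) and day 7 (dotted). In both couples with BR-RF, MID2 lay under all its neighbours, by a small margin for the lowest of them, and WSC3 lay under the raised median of its own.

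MTL1 (YGR023W) encodes the close relative of Mid2 and shares its role in the response to wall and oxidative stress. In BR-RF/BR-S its arrays read 0.30, -0.22 and 0.03 on day 4, and -1.46, -0.01 and -0.88 on day 7. The fitted ratio was 0.04 ± 0.21 on day 4 and -0.81 ± 0.21 on day 7 (SE, n = 2), the second of which was 1.75-fold lower in BR-RF (adjusted p = 0.026, limma). On day 7 arrays 1 and 3, which carried BR-RF in Cy5, were low, and array 2, which carried BR-S in Cy5, was close to 0. MTL1 had a dye effect of -0.37 ± 0.07 (adjusted p = 0.00095), and with a dye term in the fit its ratio was -0.65 (adjusted p = 0.021). The call was lost without array 1 (-0.45, adjusted p = 0.29) and without array 3 (-0.73, adjusted p = 0.25), and with the 3 arrays taken as replicates (-0.78, adjusted p = 0.052).

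For BR-RF/BR-F, MTL1 gave -0.27, 0.51 and 0.22 on day 4 and -1.34, -0.43 and -0.09 on day 7, with fitted ratios of 0.17 (adjusted p = 0.70, limma) and -0.49 (adjusted p = 0.14). With the dye term the ratio of day 7 was -0.72 (adjusted p = 0.0090) and with strain effects -0.49 (adjusted p = 0.032), both of them calls. BR-F/BR-S read 0.24 and -0.44 on the 2 arrays measured on day 4, and -0.68, -0.15 and -0.24 on day 7, with fitted ratios of -0.10 and -0.33 (adjusted p = 0.88 and 0.34). Day 7 minus day 4 for MTL1 was -0.84 ± 0.29 in BR-RF/BR-S and -0.66 ± 0.29 in BR-RF/BR-F (SE), the biggest day differences in the pathway, and neither passed the test (adjusted p = 0.22 and 0.51). Array 3 of each couple had opposite dyes on the 2 days, so a dye effect of this size enters these differences.

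None of the 3 Wsc sensors was called in limma in any couple and day, though WSC3 came close in one. WSC3 (YOL105C) was above 0 on all arrays of BR-RF/BR-S, with 0.69, 0.54 and 0.60 on day 4 and 0.58, 0.52 and 0.11 on day 7. The fitted ratio of 0.61 ± 0.17 on day 4 (SE, n = 2, 95% interval 0.24 to 0.98) missed the threshold (adjusted p = 0.071, limma), and that of day 7 was 0.33 (adjusted p = 0.21). Under 5 alternatives the ratio of day 4 was called, at 0.56 to 0.61, with an adjusted p of 0.010 to 0.020 in 4 of them (loess by print block, 3 arrays as replicates, the dye term and strain effects) and by size and unadjusted p in the methods' test. Over BR-F it was 0.24 on day 4 and 0.22 on day 7, and for BR-F/BR-S 0.22 and 0.15, with adjusted p between 0.43 and 0.62.

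WSC3 lies on the left arm of chromosome XV, among genes that were higher in BR-RF. By the paper's quantitative PCR of genomic DNA, some genes of this arm had more copies in BR-RF than in BR-S, relative to right-arm genes. The paper takes this as a sign of partial genome duplication. WSC3 was not among the genes measured, and how far copy number sets its ratio was not tested. Its neighbours had medians of 0.68 and 0.69 in BR-RF/BR-F on days 4 and 7, with 19 of 43 and 23 of 45 called higher, and of 0.79 and 0.56 over BR-S, with 22 of 41 and 20 of 44 called higher. In BR-F/BR-S the neighbours' medians were -0.01 and -0.02. WSC3 lay below these medians in BR-RF, by 0.44 and 0.47 over BR-F and by 0.18 and 0.23 over BR-S on days 4 and 7. SLG1 (YOR008C), which encodes Wsc1, the main sensor under heat and wall stress, lies on the right arm of the same chromosome. Its ratio over BR-F was 0.22 on day 4 and 0.32 on day 7, beside neighbours at 0.31 and 0.28.

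SLG1 was measured well above background, with a background-subtracted signal at 7.30 times the local background (median over spots of the dimmer channel), and its SE of 0.15 was the smallest of the 10 genes. On the arrays of BR-RF/BR-S it read 0.07, 0.01 and 0.09 on day 4 and 0.26, -0.04 and 0.39 on day 7. The fitted ratios over the 6 couples and days lay between -0.08 and 0.32, and none was called (lowest adjusted p = 0.18, limma, BR-RF/BR-F on day 7, 95% interval -0.01 to 0.65). WSC2 (YNL283C), another Wsc sensor, was dim, at 0.769 times the background, and was measured on 12 arrays. Its 4 tested ratios lay between -0.09 and 0.37, with an adjusted p of 0.30 or more, and BR-F/BR-S on day 7 had no value for it. Its dye effect was -0.24 ± 0.08 (adjusted p = 0.045).

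Of the 4 kinase genes only BCK1 was called, in 1 couple and day. PKC1 (YBL105C), the protein kinase C that relays the signal from Rho1, gave ratios between -0.49 and 0.12. The lowest was that of BR-RF/BR-F on day 7, with arrays at -1.14, -0.54 and -0.14 (fitted -0.49, 95% interval -1.02 to 0.04, adjusted p = 0.20, limma). PKC1 was dim, with a background-subtracted signal at 0.510 times the local background. Its SE was 0.24, so a difference of 1.5-fold lay within the intervals of 5 of its 6 ratios.

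BCK1 (YJL095W), the first kinase of the cascade, was lower in BR-F than in BR-S on day 7. Its arrays 2 and 3 gave -0.50 and -0.62, array 1 had no value, and the fitted ratio was -0.56 ± 0.15 (SE, n = 2), 1.48-fold lower (adjusted p = 0.048, limma). Both of those arrays carried BR-S in Cy5. The dye effect fitted for BCK1 over all couples was -0.14 ± 0.16 (adjusted p = 0.52), and with it in the fit the ratio was -0.71 (adjusted p = 0.066). The adjusted p was 0.0497 without array 1 and 0.38 without array 3, and without array 2 the gene could not be tested. With all arrays, 7 alternatives, the dye term among them, gave ratios of -0.54 to -0.71 with an adjusted p of 0.062 to 0.095. In BR-RF/BR-F, BCK1 read 0.35 and 0.46 on arrays 2 and 3 of day 7, with a fitted ratio of 0.41 (95% interval 0.07 to 0.74, adjusted p = 0.11), and in BR-RF/BR-S it was -0.14 on day 7 (adjusted p = 0.57). BCK1 was measured on 10 arrays in all.

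MKK1 (YOR231W), the next kinase, was measured on 13 arrays, and its 5 tested ratios lay between -0.31 and 0.34 with none called. For BR-F/BR-S it was 0.28 and 0.41 on the 2 arrays measured on day 7 (adjusted p = 0.30, limma), while in BR-RF/BR-S on day 4 all arrays were below 0, at -0.41, -0.43 and -0.19 (adjusted p = 0.51). Its dye effect was -0.21 ± 0.07 (adjusted p = 0.042). SLT2 (YHR030C), the mitogen-activated protein kinase itself, was measured on all arrays at 3.02 times the background. Its fitted ratios lay between -0.26 and 0.16. The arrays of a dye swap differed widely for SLT2, for example 1.09 and 0.04 on arrays 1 and 2 of BR-RF/BR-F on day 7, with -0.23 on array 3. Its dye effect was 0.33 ± 0.07 (adjusted p = 0.0022). The interval closest to a change was that of BR-F/BR-S on day 7, at -0.26 (95% interval -0.70 to 0.19, adjusted p = 0.45). Loess by print block gave calls of SLT2 on day 7, at 0.37 in BR-RF/BR-F (adjusted p = 0.028) and -0.43 in BR-F/BR-S (adjusted p = 0.021). Without array 1 the ratio of BR-RF/BR-F was -0.10, below 0.

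RLM1 (YPL089C), the transcription factor at the end of the cascade, was lower than in the smooth strain BR-S in both strains with structured colonies on day 7, and in BR-RF on day 4 as well. In BR-RF/BR-S its arrays gave -0.97, -0.59 and -0.79 on day 4 and -1.14, -1.03 and -0.90 on day 7. In BR-F/BR-S they gave -0.88, -0.86 and -0.26 on day 4 and -0.70, -0.92 and -0.74 on day 7. No array of these couples had more RLM1 signal from the structured strain than from BR-S. The fitted ratio of BR-RF/BR-S was -0.79 ± 0.18 on day 4 (SE, n = 2), 1.72-fold lower (adjusted p = 0.032, limma), and -0.99 ± 0.18 on day 7, 1.99-fold lower (adjusted p = 0.0050). For BR-F/BR-S it was -0.57 ± 0.18 on day 4 (adjusted p = 0.10) and -0.78 ± 0.18 on day 7, 1.71-fold lower (adjusted p = 0.019).

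Between the structured strains RLM1 lay close to 0. The arrays of BR-RF/BR-F were 0.10, -0.15 and -0.06 on day 4 and 0.39, -0.10 and -0.36 on day 7, and the fitted ratios were -0.04 (95% interval -0.43 to 0.35) and -0.11 (-0.50 to 0.28), with adjusted p of 0.93 and 0.74. Its day differences were small, from -0.21 to -0.07, with an adjusted p of 0.74 or more. RLM1's neighbours on chromosome XVI had medians between -0.13 and 0.08 in all couples and days. Without array 3 the 3 calls of RLM1 were lost (adjusted p of 0.18 in BR-F/BR-S on day 7, and 0.21 and 0.065 in BR-RF/BR-S on days 4 and 7), and that of day 4 was also lost without array 1 (0.051), with the replicate block (0.052) and with the first spot only (0.052), while the ratios without single arrays stayed between -0.69 and -1.08 in these 3 comparisons. Leaving out array 3 leaves 1 biological replicate, which is then assumed to vary like the other groups.

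**Figure D3:**
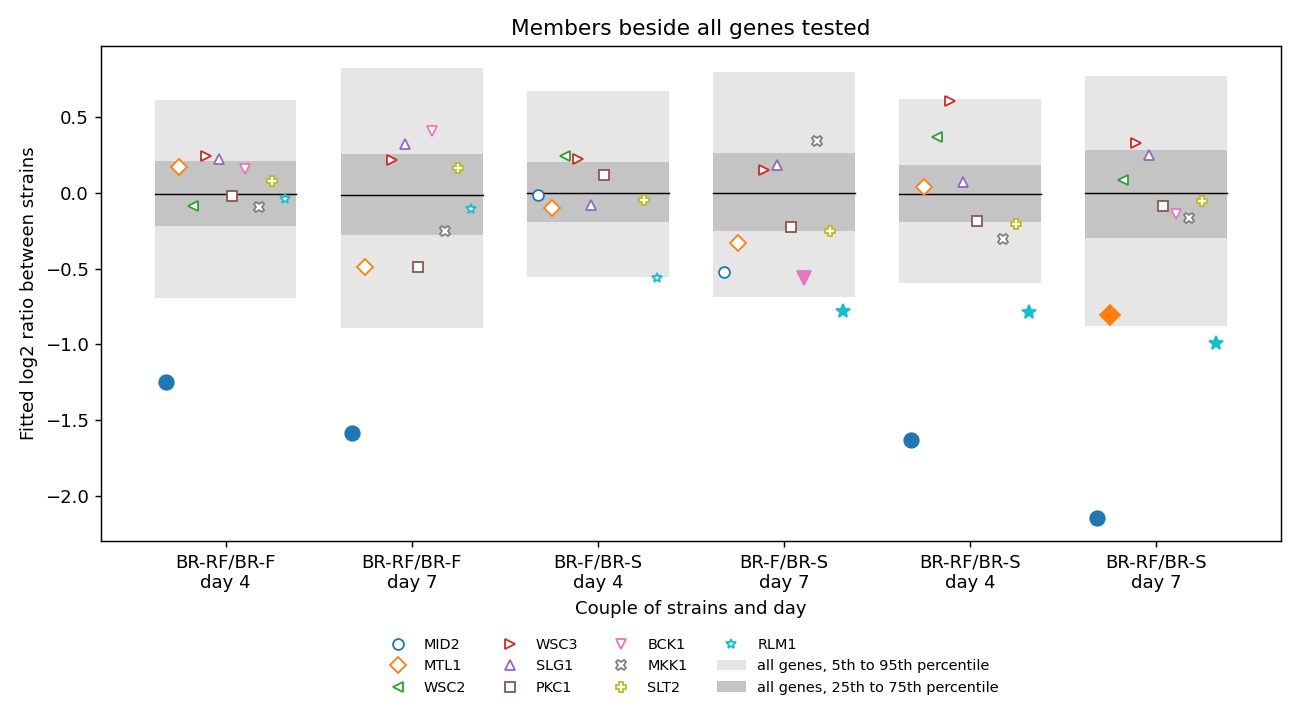
Fitted log2 ratio (y axis) of the pathway genes tested in each couple and day (x axis), with filled symbols for an adjusted p under 0.05. Grey boxes span the 5th to 95th and 25th to 75th percentiles of all genes tested, and the line is their median. MID2 lies far below the 5th percentile in the couples with BR-RF, RLM1 lies at or below it in the couples with BR-S, and the other genes lie inside the boxes.

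The genes whose ratios were most like those of MID2 and RLM1 over the 12 replicate ratios were named by rule, out of 3833 genes with all ratios. For MID2 they were ORM2 (Pearson r = 0.932), a regulator of sphingolipid synthesis, YLR345W (r = 0.908), and GAL2 (r = 0.897), the galactose permease gene. All 3 lie on chromosome XII, and ORM2 and YLR345W are among the neighbours described above. For RLM1 they were CLG1 (r = 0.920), CTS1 (r = 0.908), the endochitinase that separates daughter cells, and USV1 (r = 0.903), a zinc finger transcription factor gene. They lie on chromosomes VII, XII and XVI. The 12 ratios share strains and days, so they are not independent points.

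No day difference of a pathway gene was called in limma. In BR-RF/BR-F 0 of 9 genes changed between days (0.523% of all 4783 genes tested did), in BR-F/BR-S 0 of 7 (0.311% of 4179), and in BR-RF/BR-S 0 of 9 (0.352% of 4262). At an unadjusted p under 0.05, MTL1 stood alone among the pathway genes, once in BR-RF/BR-F and once in BR-RF/BR-S, beside 461 and 662 of all genes. The difference between the direct ratio of BR-RF/BR-S and the sum of the other couples was called for 0 of 8 genes on day 4 and 0 of 9 on day 7, as for 0.0% of all genes (4080 and 4439 tested, of which 39 and 49 had an unadjusted p under 0.05). So few small p-values leave this check with little power, and the absence of calls does not show that the couples agree.

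Around these 10 genes, 6 genes that act above the cascade were followed, the sensor WSC4, the Mid2 partner ZEO1, the Rho1 exchange factors ROM1, ROM2 and TUS1, and RHO1 itself. None of them was called in limma in any couple and day. At an unadjusted p under 0.05 the count was 2 in BR-RF/BR-F on day 7 (1441 of all 4984 genes had such a p), 1 each in BR-RF/BR-F on day 4 (1001 of 4959), BR-F/BR-S on day 7 (1338 of 4902) and BR-RF/BR-S on day 7 (1522 of 4716), and 0 in the others. ROM2 came closest on day 7 of BR-F/BR-S, where arrays 2 and 3 read -0.93 and -0.80 and the fitted ratio was -0.86 ± 0.24 (adjusted p = 0.0505). On day 7 of BR-RF/BR-F its arrays read 0.14, 0.83 and 1.00, with a fitted ratio of 0.74 ± 0.24 (adjusted p = 0.072). The dye effect of ROM2 was -0.32 ± 0.10 (adjusted p = 0.038). RHO1 had ratios between -0.31 and 0.25, with an adjusted p of 0.23 or more.

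Among 8 genes that hold the pathway back (the Rho1 GTPase activators SAC7, BAG7, BEM2 and LRG1 and the phosphatases MSG5, SDP1, PTP2 and PTP3), PTP2 was lower in BR-F than in BR-S on day 7, with arrays at -0.79, -0.57 and -0.78 and a fitted ratio of -0.73 ± 0.14 (adjusted p = 0.0094, limma). It was 1 of 7 tested in that comparison, where 5.1% of all genes were lower. None of the others was called in any couple and day. Of the remaining cascade and factor genes MKK2, KDX1, SWI4 and SWI6, none was called, and their tested ratios lay between -0.38 and 0.37.

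The cell wall genes that the pathway is known to drive were followed as a list of 17, of which 15 were tested in BR-RF/BR-S on day 7. There 5 were lower and none higher, beside 8.61% lower of all genes, and the median of the list was -0.38 against 0.00 for all genes. The 5 were genes of wall mannoproteins. The list was chosen with earlier results of these data known, so its count is not an independent test. From the same arrays, the paper already names HSP150, PST1 and SED1 as higher in smooth colonies. CCW14 read -1.33 and -1.42 on arrays 1 and 3 (fitted -1.37 ± 0.14, adjusted p = 0.00075, limma), and SED1 read -1.03, -1.71 and -0.85 (fitted -1.11 ± 0.27, adjusted p = 0.021). For SED1, HSP150 and PIR3, 10, 6 and 7 spots were saturated, which limits the exactness of their ratios. These were counted over all arrays before poor spots were dropped. Dye effects were called for SED1 (0.38 ± 0.07, adjusted p = 0.00080) and PST1 (-0.26 ± 0.07, adjusted p = 0.012). PST1, at -0.97, HSP150, at -0.81, and PIR3, at -0.66, were also lower. On day 7 of BR-F/BR-S, HSP150 (-1.03 ± 0.22, adjusted p = 0.014) and CCW14 (-0.95 ± 0.14, adjusted p = 0.0036) were lower among 16 tested, beside 5.1% of all genes. PIR3, HSP150, PIR1 and CIS3 are related genes, whose spots could share signal.

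Not all targets ran that way. On day 4 of BR-RF/BR-S, CCW14 was lower (-0.97 ± 0.14, adjusted p = 0.0059, limma), whereas PRM5, a membrane protein gene often used as a reporter of Slt2 activity, was higher, with arrays at 1.32, 0.87 and 0.78 and a fitted ratio of 0.94 ± 0.15 (adjusted p = 0.0054). Of 17 targets tested there, 1 was lower and 1 higher, beside 1.82% lower and 2.97% higher of all genes. PRM5 lies on chromosome IX, where the paper reports a region with genes raised in BR-RF. Its neighbours were not followed, and how far its position sets its ratio was not tested. CWP1, another wall mannoprotein gene, was higher on day 7 in BR-RF/BR-F (0.64 ± 0.16, adjusted p = 0.020, limma). It was 1 of 16 tested in that comparison, where 7.8% of all genes were higher. The other couples of that day gave 0.27 in BR-RF/BR-S and 0.12 in BR-F/BR-S, neither called. For CWP1 the direct ratio of BR-RF/BR-S minus the sum of the other couples was -0.49 ± 0.27 (SE). The remaining targets, among them the glucan synthase genes FKS1 and GSC2 and the chitin synthase gene CHS3, were not called in any couple and day.

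**Figure D4:**
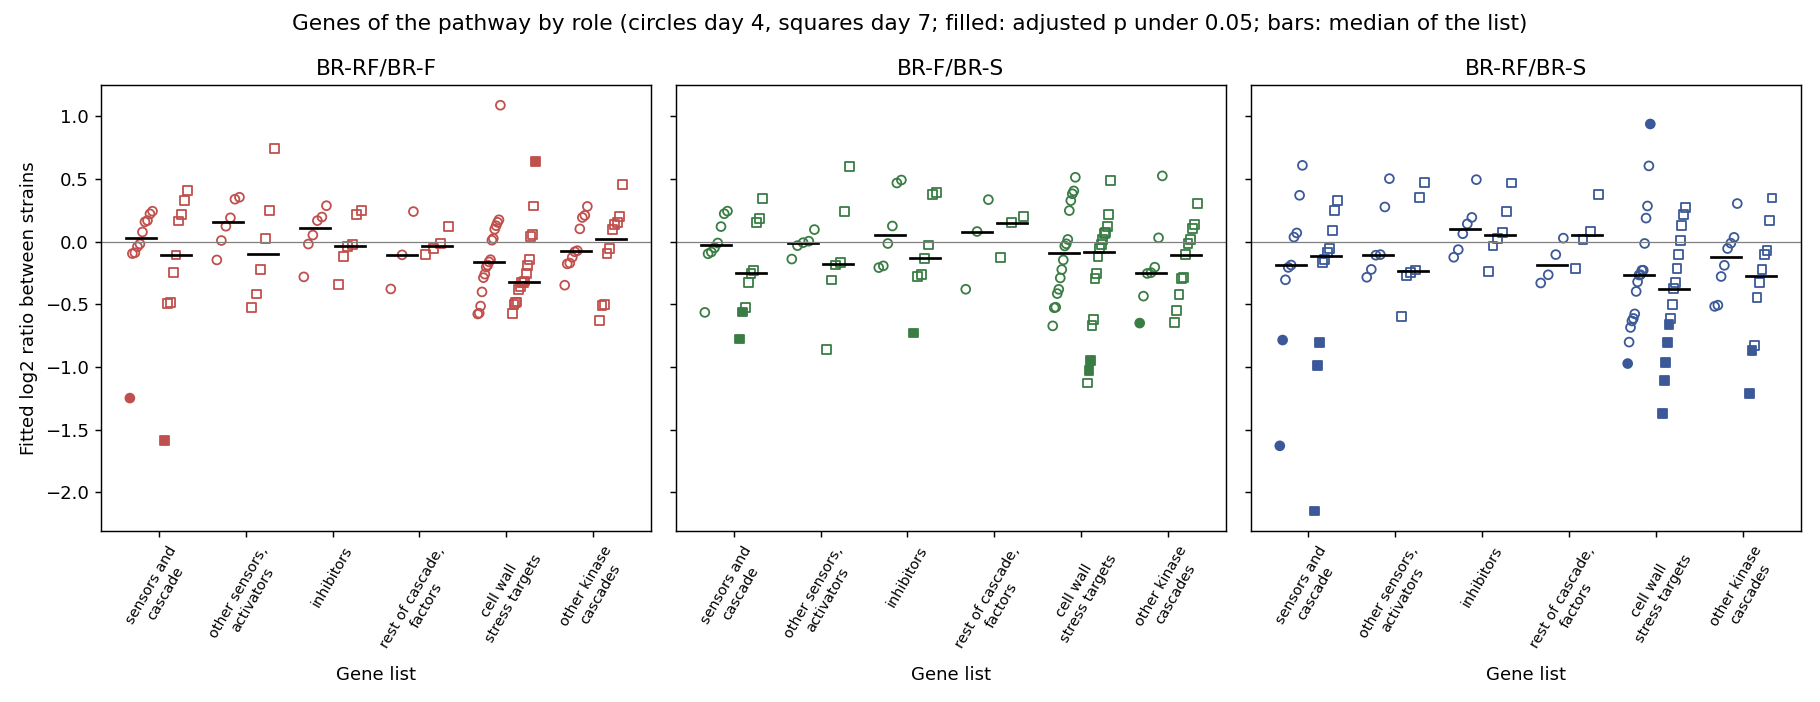
Fitted log2 ratio (y axis) of each gene tested, by role in the pathway (x axis), for the 3 couples, with circles for day 4, squares for day 7, filled symbols for an adjusted p under 0.05 and bars for the median of each list. In BR-RF/BR-S on day 7 the called genes of the sensors and cascade and of the targets all lie below 0.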

How the data were processed

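RNA from giant colonies of BR-RF, BR-F and BR-S was hybridised in couples on 18 two-colour spotted ORF arrays of 13056 spots. The deposited array files hold Cy3 and Cy5 intensities (spot medians), from which TIGR Spotfinder (3.1.1 and 3.2.1, per the file headers) had subtracted local background. The deposited value table holds log2 ratios that the authors normalised by LOWESS in MIDAS, and it served as an alternative. The build behind the array is not given in the sources used here, and R64 was used for names and neighbours only. Spots marked poor or without positive signal were dropped, ratios were corrected per array by loess (span 0.3), spots of a gene were averaged and ratios turned to a common direction. The signal over background had array medians of 0.717 to 2.70 (Cy3) and 0.906 to 3.34 (Cy5), and precision is limited by the number of arrays. Arrays 1 and 2, by the labels one RNA with exchanged dyes, gave 1 biological replicate as their mean and array 3 the other, although the paper describes all 3 as biological replicates.

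The 12 replicate ratios were fitted in limma 3.58.1 (R 4.3.3, lmFit and eBayes, 6 residual and 4.64 prior degrees of freedom) with 1 mean per couple and day. Tests were two-sided with Benjamini-Hochberg adjustment within a couple and day over all genes with both replicates. Intervals use the same degrees of freedom. The fit was tested on simulated data. All 10 genes were named, other genes of the pathway where called or where a result turned on them, and the genes most alike for members called at least 2 times. The members and lists were chosen with earlier results of these data known. Some genes of the list of activators are not reported here. Tables and figures were made with Python 3.11.15, pandas 2.3.3 and matplotlib 3.10.9. Alternatives were other normalisations, spot filters, replicate definitions, a dye term, a replicate block, strain effects, the methods' one-sample test over 3 arrays, each array left out, and, chosen after seeing the data, either spot alone.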

Additional observations from a re-analysis of the deposited data

Results flagged for a closer look

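PKC1 stood out in BR-F/BR-S because its arrays lay on opposite sides of 0 on the 2 days, at 0.01, 0.30 and 0.08 on day 4 and -0.40, -0.27 and -0.12 on day 7. The difference, day 7 minus day 4, was -0.35 ± 0.34 (SE) and did not pass the test (adjusted p = 0.82, limma). Groups of 3 arrays were too small for a test of single outlying samples.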

How the results depend on the processing

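Over 16 alternatives, 900 values were obtained for 59 ratios of the pathway genes, of which 853 kept their side of the threshold, 30 lost a call (2 of them, BCK1 without array 2 and RLM1 without dim spots, because they could not be tested), 17 gained one and none of the called ratios changed sign. The counts of pathway genes called moved as follows, and the causes were not tested. In BR-F/BR-S on day 4, where the count was 0, print-block loess, the dye term, 3 arrays as replicates and strain effects per day gave 1 (RLM1). In BR-F/BR-S on day 7, where it was 2, print-block loess gave 4 (with MID2 and SLT2), strain effects gave 3 (with MID2), leaving out dim spots and the methods' test after Benjamini-Hochberg gave 0, and median centring, the dye term, 3 arrays as replicates, the methods' test at 1.5-fold and unadjusted p, the replicate block and either spot alone gave 1. In BR-RF/BR-F the count of 1 was 0 on day 4 under both forms of the methods' test, and on day 7 it was 2 with print-block loess or the dye term, 3 with strain effects and 0 under the methods' test after adjustment. In BR-RF/BR-S the count of 2 on day 4 was 3 (with WSC3) with print-block loess, 3 arrays as replicates, the dye term, strain effects and the methods' test at 1.5-fold and unadjusted p, 1 with the first spot only or the replicate block and 0 under the methods' test after adjustment, which also gave 0 in place of 3 on day 7, where 3 arrays as replicates and the methods' test at 1.5-fold and unadjusted p gave 2 (without MTL1) and strain effects gave 4 (with SLG1). For day 7 minus day 4 in BR-RF/BR-S, strain effects gave 1 (MTL1) in place of 0. Without single replicates the counts ranged from 0 to 2 in BR-F/BR-S on day 7, from 0 to 1 in BR-RF/BR-F on day 4, from 1 to 2 and from 1 to 3 in BR-RF/BR-S on days 4 and 7, and from 0 to 1 in that couple's day difference. Deviations of the replicates correlated at -0.543 to 0.323 between couples and days. The couples share strains and array 3 has no dye swap, so these values cannot show whether replicate numbers pair the samples. The replicate block changed no other count. Among all genes, the number called ran from 0 with the methods' test after adjustment to 732 and 1362 in BR-RF/BR-F on days 4 and 7, 568 in BR-F/BR-S on day 4, and 494 and 1398 in BR-RF/BR-S on days 4 and 7 with strain effects, and from 2 to 1267 in BR-F/BR-S on day 7. The day differences called ran from 5 to 86, 1 to 63 and 1 to 264 genes in BR-RF/BR-F, BR-F/BR-S and BR-RF/BR-S. PKC1, MKK1, WSC2 and WSC3 were dim, with median background-subtracted signals in the dimmer channel that were smaller than the local background itself.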

Other observations

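Other kinase cascades that share parts with the cell wall pathway were followed as 12 genes of the mating, filamentation and osmotic stress pathways. Of 10 tested in BR-RF/BR-S on day 7, 2 were lower, beside 8.61% lower of all genes. STE7, the kinase above Fus3 and Kss1, read -1.47, -1.15 and -1.11 on arrays 1, 2 and 3 (fitted -1.21 ± 0.21, SE, adjusted p = 0.0044, limma). STE11, the kinase above Ste7 and Pbs2, read -1.18, -0.12 and -1.09 (fitted -0.87 ± 0.18, adjusted p = 0.0097). Dye effects were called for STE7 (-0.37 ± 0.07 on the log2 scale, adjusted p = 0.0014) and HOG1 (-0.18 ± 0.06, adjusted p = 0.022). HOG1, the kinase of the osmotic stress pathway, was lower in BR-F than in BR-S on day 4, with arrays at -0.49, -0.57 and -0.77 (fitted -0.65 ± 0.14, adjusted p = 0.025, limma). It was 1 of 7 tested in that comparison, where 1.72% of all genes were lower. No gene of this list was called in BR-RF/BR-F. FUS3 had no usable spot on any array.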
